A study of Mus musculus with 4 samples.

Results

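The 37 genes described here carry glucose into the cell, break it down to pyruvate, turn pyruvate into lactate or pass it to the mitochondrial pyruvate dehydrogenase complex. They were chosen by name, as a list of rows of the deposited count table, and all 37 were found among its 24421 gene rows. The cells were lymphatic endothelial cells of newborn mouse lung (postnatal day 0), sorted as CD45-, CD31+ and GFP+. All groups carried Prox1-CreER, a tamoxifen-dependent Cre driven by the Prox1 gene, and the Rosa26-mTmG reporter that gives GFP after Cre acts. The series' text also speaks of Prox1-GFP lungs, and does not state which reporter the sort read. The Jun-cKO-labelled group carried 2 floxed Jun alleles (Junf/f), and the Jun-Ctrl group carried 1 floxed and 1 wild-type allele (Junf/+), so the control group also has Cre and can lose 1 copy of Jun. Each group has 2 libraries from pooled mice, amplified from small amounts of RNA, and the labels do not say that the libraries of a group are separate sorts. The p-values below therefore set the group difference only against the spread between libraries of a group, estimated with information shared across genes. That spread can be technical.

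Glycolysis runs from glucose uptake and phosphorylation by hexokinase, through the committed step of phosphofructokinase, to pyruvate kinase. Lactate dehydrogenase then reduces pyruvate to lactate, which leaves the cell through monocarboxylate transporters, or pyruvate enters mitochondria, where pyruvate dehydrogenase makes acetyl-CoA and the pyruvate dehydrogenase kinases switch that enzyme off by phosphorylation. Endothelial cells are known for a high rate of glycolysis, in which the activator enzyme PFKFB3 has a leading part, and several genes of the pathway are textbook targets of hypoxia-inducible factors.

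Total counts were 15558476 and 6911821 in Jun-cKO-labelled libraries and 16037416 and 6483514 in the Jun-Ctrl libraries. The targeted gene did not fall: Jun had 524 and 474.5 CPM (counts normalised to library size, by the TMM method) in Jun-cKO-labelled libraries and 472 and 433 CPM in Jun-Ctrl (log2 difference 0.14 ± 0.12 SE, adjusted p = 0.354), and the counts cannot show whether the reads come from an intact transcript. Every direction below rests on the label. Lymphatic marker genes summed to 17766 and 18306 CPM in Jun-cKO-labelled libraries against 13732 and 12620 CPM in Jun-Ctrl. Lyve1 alone gave 8641 and 10260 CPM of these sums, against 6402 and 5971 CPM in Jun-Ctrl. Of the 7 tested, 3 were higher (Lyve1, Mmrn1 and Reln) and 2 lower, and Ccl21a was at 0 in all 4 libraries. With a correction for GC content the 3 higher calls remained, the 2 lower ones, Flt4 (adjusted p = 0.0700) and Tie1 (adjusted p = 0.959), ended, and Prox1 passed as lower (log2 difference -0.43, adjusted p = 0.0103). Of 7 tested blood endothelial markers 3 rose and 3 fell. Of 7 pan-endothelial markers 2 rose and 0 fell, and of 6 tested muscle markers 0 rose and 3 fell. Markers of other lung cells fell: 14 of 15 tested epithelial genes were lower (summed 204 and 198 CPM under the Jun-cKO label, against 1743 and 1842 CPM in Jun-Ctrl), as were 8 of 8 tested immune genes (205 and 183 CPM, against 471 and 462.5 CPM) and 6 of 9 mesenchymal genes (104 and 111 CPM, against 328 and 332 CPM). In bulk libraries fewer cells of such a type and less RNA per cell cannot be told apart, and the part of these cells in the changes below was not tested.

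Of the 37 members, 33 had enough counts to be tested, and Hk3, Pgam2, Eno1 and Eno2 did not. Genes were called at an adjusted p under 0.05 (edgeR quasi-likelihood test, Benjamini-Hochberg over 12656 genes). In the Jun-cKO-labelled libraries 7 members rose (Slc2a1, Pfkp, Pfkfb3, Pgk1, Ldha, Pdk1 and Pdk3), 4 fell (Hk1, Hk2, Ldhb and Pdk2) and 22 did not pass the test. Those called are 33.3% of the tested members, against 41.5% of all tested genes; 21.2% rose, against 19% of all genes, and 12.1% fell, against 22.5% of all genes. The median log2 difference was 0.021 over the tested members and 0.0053 over all tested genes, and single members ran between -2.20 and 1.72. Both Jun-cKO-labelled libraries were above both Jun-Ctrl libraries for 11 tested members, against 35.4% of all tested genes, and below both for 9, against 35.9% of all tested genes. The members together took 0.305% and 0.309% of all counts in Jun-cKO-labelled libraries and 0.271% and 0.297% in Jun-Ctrl. Against the stricter question of a change beyond 1.5-fold, 5 of the 33 tested members passed, beside 1453 of all 12656 tested genes. These members were Pfkfb3, Pgk1, Ldhb, Pdk1 and Pdk2.

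**Figure D1:**
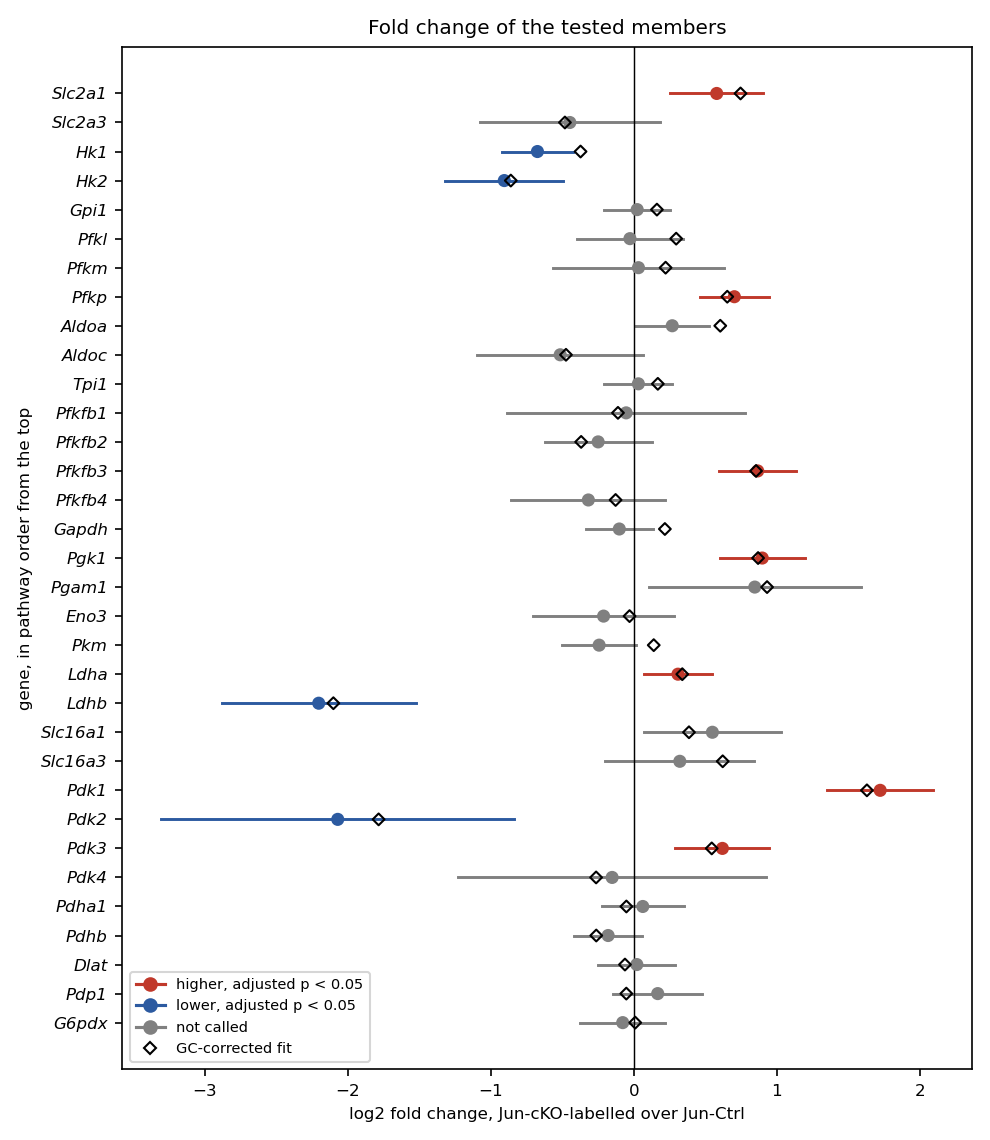
Log2 difference of each tested member, Jun-cKO-labelled minus Jun-Ctrl, in pathway order, with its 95% interval from the edgeR fit; red points were called higher, blue lower and grey not called at an adjusted p of 0.05, and open diamonds give the GC-corrected fit. The kinase gene Pdk1 lies farthest to the right at 1.72 and Ldhb farthest to the left at -2.20, and most steps hold members on either side of 0.

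The promoters of 3 members that rose and 1 that fell are shown, because hypoxia-inducible factors bind the core motifs ACGTG and also GCGTG, and because AP-1, the complex Jun belongs to, binds TGANTCA. Each is the 250 bases before the RefSeq start site (GRCm38.p6), 5′ to 3′ along the gene; capitals mark these motifs on either strand. Pdk1 lies at chr2:71872974-71873223 (plus strand), Pgk1 at chrX:106186850-106187099 (plus strand), Ldha at chr7:46845554-46845803 (plus strand) and Hk2 at chr6:82774455-82774704 (minus strand).
Pdk1: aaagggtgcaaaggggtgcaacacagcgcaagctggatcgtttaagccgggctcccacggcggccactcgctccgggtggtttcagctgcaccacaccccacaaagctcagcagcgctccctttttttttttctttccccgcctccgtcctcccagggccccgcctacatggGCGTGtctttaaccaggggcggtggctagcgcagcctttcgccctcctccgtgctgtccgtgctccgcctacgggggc
Pgk1: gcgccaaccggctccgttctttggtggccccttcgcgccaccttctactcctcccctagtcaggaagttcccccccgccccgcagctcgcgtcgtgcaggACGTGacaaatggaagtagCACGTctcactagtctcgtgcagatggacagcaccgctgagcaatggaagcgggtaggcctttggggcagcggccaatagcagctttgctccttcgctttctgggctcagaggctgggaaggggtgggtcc
Ldha: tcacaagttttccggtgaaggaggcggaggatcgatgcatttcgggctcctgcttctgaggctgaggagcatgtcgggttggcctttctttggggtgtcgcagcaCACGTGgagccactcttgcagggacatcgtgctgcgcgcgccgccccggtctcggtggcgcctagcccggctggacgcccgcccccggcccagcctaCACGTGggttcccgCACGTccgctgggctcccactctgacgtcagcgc
Hk2: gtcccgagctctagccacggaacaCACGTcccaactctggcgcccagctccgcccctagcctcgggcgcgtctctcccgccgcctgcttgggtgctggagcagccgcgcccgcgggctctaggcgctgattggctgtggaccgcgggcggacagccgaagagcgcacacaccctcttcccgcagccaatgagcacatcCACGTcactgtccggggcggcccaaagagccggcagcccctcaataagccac
The Ldha window holds ACGTG at 5 places counting both strands, of which 4 pair up in 2 copies of the palindrome CACGTG, and the nearest begins 34 bases before the start site. In the Pgk1 window ACGTG begins 150 and 131 bases before the start site, and in the Hk2 window 226 and 52 bases before it. The Pdk1 window has no ACGTG and 1 GCGTG, beginning 78 bases before the start site. Of the 35 members with a RefSeq promoter, 13 (37.1%) hold ACGTG in this window, against 16.5% of all 27025 promoters and 21.7% of the 9653 promoters of tested genes. The motif stands in 5 of the 7 members that rose (Slc2a1, Pfkfb3, Pgk1, Ldha and Pdk3), in 2 of the 4 that fell and in 5 of the 20 with a promoter that did not pass the test. GCGTG, searched after the ACGTG matches were seen, stands in 54.3% of the members' windows, 28.3% of all promoters and 46.1% of those of tested genes. By call, GCGTG stands in 4 of the 7 members that rose, 1 of the 4 that fell and 13 of the 20 that did not pass. TGANTCA stands in none of the members' windows, in 6.84% of all promoters and in 4.11% of those of tested genes. Other motifs that Jun may bind were not searched. Such matches describe the letters of the window only.

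The levels of the members, per kilobase of deposited gene length, span several orders. Aldoa, which encodes the aldolase that splits fructose bisphosphate, was the highest, with 574 and 553 CPM per kilobase in Jun-cKO-labelled libraries and 426 and 511 CPM per kilobase in Jun-Ctrl. Ldha followed with 298 and 268 against 226 and 231 CPM per kilobase, and Gapdh with 187 and 207 against 199 and 224 CPM per kilobase. Triosephosphate isomerase Tpi1 came next, with 81.4 and 80.3 CPM per kilobase in Jun-cKO-labelled libraries and 71.7 and 87.3 CPM per kilobase in Jun-Ctrl. Below these Pkm, Pdhb, Gpi1, Pgk1, Pfkp and Hk1 filled the places after it. Of the members that rose, Ldha, Pgk1 and Pfkp were among the 10 highest, and of those that fell Hk1 was.

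**Figure D2:**
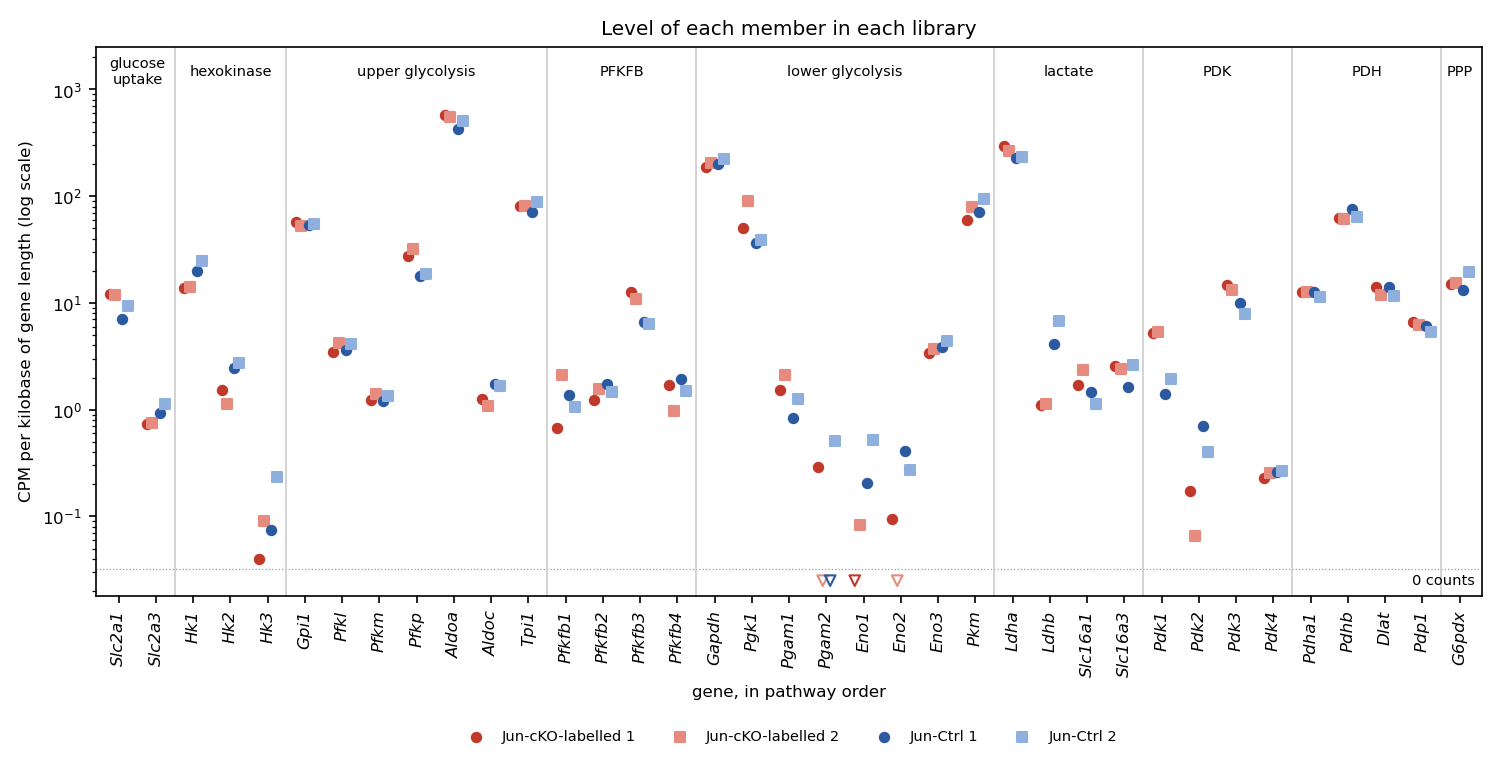
CPM per kilobase of each member in each library on a log axis, in pathway order; red marks are the Jun-cKO-labelled libraries, blue marks the Jun-Ctrl libraries, and open triangles below the dotted line are libraries with 0 counts. Among the tested members the groups lie farthest apart for Ldhb, Pdk2 and Pdk1.

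Of the glucose uptake members, Slc2a1 rose in Jun-cKO-labelled libraries, while both hexokinase members that were tested fell. Of all tested genes 19% rose and 22.5% fell. Slc2a1 encodes GLUT1, the main glucose transporter of endothelium (chromosome 4, 119108711 to 119137983, GRCm38), and had 31.0 and 30.4 CPM in Jun-cKO-labelled libraries, against 18.1 and 24.02 CPM in Jun-Ctrl. Both Jun-cKO-labelled libraries were above both Jun-Ctrl libraries, and the fold was 1.49 (95% interval 1.19 to 1.87, adjusted p = 0.00334). Without Jun-Ctrl replicate 1 the call ended (log2 difference 0.34, adjusted p = 0.211). Slc2a3, which encodes GLUT3, had 2.88 and 2.95 CPM in Jun-cKO-labelled libraries and 3.70 and 4.44 CPM in Jun-Ctrl (adjusted p = 0.256). Slc2a1 made up 94.3% and 94.1% of the pair per kilobase in Jun-cKO-labelled libraries and 88.3% and 89.3% in Jun-Ctrl.

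Hexokinase, which traps glucose in the cell as glucose 6-phosphate, was lower in both of its expressed forms. Hk1, the housekeeping form bound to mitochondria (chromosome 10, 62268855 to 62379908), had 61.9 and 63.9 CPM in Jun-cKO-labelled libraries, against 89.9 and 112 CPM in Jun-Ctrl. The groups did not overlap, and Hk1 was 1.596-fold lower (fold interval 0.527 to 0.745, adjusted p = 2.13e-05). Hk2, the insulin- and hypoxia-responsive form whose promoter is shown above (chromosome 6, 82725025 to 82774454), had 8.45 and 6.20 CPM against 13.6 and 15.0 CPM in Jun-Ctrl. It was 1.87-fold lower (adjusted p = 0.000375), again with no overlap. Hk3, the form of blood cells, had 2 and 2 counts in Jun-cKO-labelled libraries and 4 and 5 counts in Jun-Ctrl. The summed hexokinase level was 15.3 and 15.4 CPM per kilobase in Jun-cKO-labelled libraries and 22.5 and 27.8 CPM per kilobase in Jun-Ctrl, and Hk1 made up 89.7% and 92.1% of it, against 88.7% and 89.4% in Jun-Ctrl. The ratio of Slc2a1 to Hk1, both per kilobase, was 0.877 and 0.834 in Jun-cKO-labelled libraries and 0.352 and 0.376 in Jun-Ctrl.

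In the upper steps, 1 of 7 members passed the test, or 14.3%, against 41.5% of all tested genes. Pfkp, the platelet form of phosphofructokinase (chromosome 13, 6579768 to 6648777), had 115 and 134 CPM in Jun-cKO-labelled libraries, against 74.96 and 77.4 CPM in Jun-Ctrl. Both Jun-cKO-labelled libraries were higher, by 1.63-fold (1.38 to 1.92, adjusted p = 5.32e-06). The liver form Pfkl had 12.8 and 15.8 CPM against 13.6 and 15.5 CPM in Jun-Ctrl (adjusted p = 0.921), and the muscle form Pfkm had 3.74 and 4.28 CPM against 3.70 and 4.13 CPM (adjusted p = 0.943). Pfkp therefore made up 85.4% and 85.0% of the 3 forms per kilobase in Jun-cKO-labelled libraries and 78.6% and 77.0% in Jun-Ctrl, and the family sum was 32.1 and 37.6 CPM per kilobase against 22.8 and 24.005 CPM per kilobase. Of the Pfkp read-length windows, 16.5% also occur in the neighbouring gene Pitrm1, which overlaps it.

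The other enzymes of the upper steps missed the threshold in this fit. Gpi1, which turns glucose 6-phosphate into fructose 6-phosphate, had 165 and 153 CPM in Jun-cKO-labelled libraries and 154 and 160.03 CPM in Jun-Ctrl (adjusted p = 0.892). Aldoa had 1047 and 1010 CPM, both above the 778 and 931 CPM of Jun-Ctrl, and its 1.20-fold difference had an adjusted p of 0.0822. With a correction for GC content Aldoa passed, at a log2 difference of 0.60 and an adjusted p of 0.000165. The brain form Aldoc had 3.60 and 3.10 CPM against 4.97 and 4.74 CPM in Jun-Ctrl (adjusted p = 0.149), and Tpi1 had 130 and 129 CPM against 115 and 140 CPM (adjusted p = 0.857).

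The bifunctional enzymes of the Pfkfb family set the level of fructose 2,6-bisphosphate, the strongest activator of phosphofructokinase. Of these, 1 of 4 passed, or 25%, against 41.5% of all tested genes. Pfkfb3, the form that works almost wholly as a kinase (chromosome 2, 11471433 to 11554077), had 67.6 and 57.0 CPM in Jun-cKO-labelled libraries, against 35.3 and 33.2 CPM in Jun-Ctrl. The groups lay well apart, with a fold of 1.82 (1.51 to 2.20, adjusted p = 1.07e-06), and the call held under every alternative setting and with each library left out. Pfkfb1, Pfkfb2 and Pfkfb4 had between 1.18 and 15.1 CPM in Jun-cKO-labelled libraries and between 1.84 and 16.8 CPM in Jun-Ctrl, with adjusted p from 0.289 to 0.930. Pfkfb3 made up 78.0% and 69.9% of the family per kilobase in Jun-cKO-labelled libraries, against 57.0% and 61.0% in Jun-Ctrl.

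Of the 8 members of the lower steps, between glyceraldehyde phosphate and pyruvate, 5 were tested and 1 passed. This is 20% of those tested, against 41.5% of all tested genes. Pgk1, the first enzyme of glycolysis to make ATP (chromosome X, 106187100 to 106203699), had 91.7 and 166 CPM in Jun-cKO-labelled libraries, against 66.2 and 70.8 CPM in Jun-Ctrl. Both Jun-cKO-labelled libraries were higher, but they differed from each other by more than the groups' nearest libraries did. The fold was 1.86 (1.51 to 2.29, adjusted p = 3.34e-06), the log2 difference was 0.43 without Jun-cKO replicate 2 and 1.28 without Jun-cKO replicate 1, and DESeq2 gave an adjusted p of 0.0882. Of its 79-base windows, the length of a read, 67.4% also occur in other genes, mostly the copy Pgk1-rs7, so its count is uncertain. Gapdh, which oxidises glyceraldehyde 3-phosphate and is a common reference gene, had 280 and 309 CPM against 298 and 334 CPM in Jun-Ctrl (adjusted p = 0.511); it shares 80% of its windows with 111 other genes. Windows are also shared by Pfkfb2 (24.2%), Pdhb (18.3%), Pkm (17.5%), Gpi1 and Pdha1 (13.5% each), and members not named for this share at most 4.32%.

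Phosphoglycerate mutase, enolase and pyruvate kinase finish the path to pyruvate. Pgam1 had 2.82 and 3.84 CPM in Jun-cKO-labelled libraries and 1.52 and 2.29 CPM in Jun-Ctrl (adjusted p = 0.0603, or 0.0428 with the GC correction), with 40.5% of its windows shared. The muscle mutase Pgam2 had 4 and 0 counts against 0 and 3 counts. The enolase row Eno1 had 0 and 1 counts in Jun-cKO-labelled libraries and 6 and 6 counts in Jun-Ctrl; 64.3% of its windows are shared with other genes, chiefly Eno1b, whose row had 49 and 14 counts against 60 and 11 counts. Enolase at these counts is far below its neighbours in the path, and its level cannot be read from these rows. The neuronal enolase Eno2 had 4 and 0 counts against 19 and 5 counts in Jun-Ctrl, which passed as lower only with no count filter or without Jun-Ctrl replicate 2, and the muscle enolase Eno3 had 5.44 and 5.91 CPM against 6.19 and 7.04 CPM (adjusted p = 0.516). Pkm, the pyruvate kinase gene of most tissues, had 156 and 206 CPM in Jun-cKO-labelled libraries and 185 and 244 CPM in Jun-Ctrl (adjusted p = 0.122). Without Jun-cKO replicate 2 Pkm passed as lower (log2 difference -0.44, adjusted p = 0.00444), and with the GC correction its difference turned to 0.14.

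The lactate dehydrogenase genes moved apart. Ldha encodes the subunit that favours lactate production (chromosome 7, 46841475 to 46855627), and had 576 and 517 CPM in Jun-cKO-labelled libraries, against 437 and 447 CPM in Jun-Ctrl. It was 1.24-fold higher (1.05 to 1.46, adjusted p = 0.0332), with no overlap between groups. This call is a narrow one: it ended without Jun-cKO replicate 1 (adjusted p = 0.168), without Jun-Ctrl replicate 1 (0.206) or replicate 2 (0.167), and with upper-quartile scaling, library totals or a stricter count filter (adjusted p from 0.0649 to 0.0877). Ldhb encodes the subunit that favours pyruvate (chromosome 6, 142490249 to 142507957), and had 1.44 and 1.48 CPM in Jun-cKO-labelled libraries (22 and 10 counts), against 5.34 and 8.87 CPM in Jun-Ctrl (88 and 58 counts). It was 4.61-fold lower (fold interval 0.136 to 0.348, adjusted p = 7.78e-07), and the call held under every alternative setting and with each library left out. The ratio of Ldha to Ldhb per kilobase was 269.8 and 237 in Jun-cKO-labelled libraries and 55.3 and 34.0 in Jun-Ctrl. Ldhb is scarce in all 4 libraries, at most 2.86% of the pair per kilobase, while the markers of other lung cells were lower in the same libraries; their part in its fall was not tested. Of its read-length windows 15.5% also occur in Gm5514. The lactate transporters Slc16a1 (MCT1) and Slc16a3 (MCT4) had 7.601 and 10.5 CPM and 6.62 and 6.20 CPM in Jun-cKO-labelled libraries, against 6.55 and 5.05 CPM and 4.25 and 6.73 CPM in Jun-Ctrl, with adjusted p of 0.058 and 0.333. The log2 difference of Slc16a1 was 0.80 without Jun-cKO replicate 1, and 0.39 with the GC correction (adjusted p = 0.185). Slc16a1 passed as higher with edgeR's likelihood ratio test (adjusted p = 0.0458), with no count filter (0.0429) and with a replicate block (0.0499).

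Of the pyruvate dehydrogenase kinases, 2 rose and 1 fell in Jun-cKO-labelled libraries. These are 50% and 25% of the 4, against 19% and 22.5% of all tested genes. Pdk1, one of the 4 pyruvate dehydrogenase kinases (chromosome 2, 71873224 to 71903858), had 27.0 and 27.8 CPM in Jun-cKO-labelled libraries, against 7.28 and 9.94 CPM in Jun-Ctrl, from 412 and 188 counts against 120 and 65 counts. The libraries of the groups lay far apart, and the rise of 3.30-fold (2.55 to 4.27, adjusted p = 1.51e-10) was the largest of any member that passed; it was called under every alternative setting and with each library left out. Pdk3 (chromosome X, 93764607 to 93832201) had 29.2 and 26.7 CPM against 20.1 and 15.8 CPM in Jun-Ctrl, a fold of 1.54 (1.22 to 1.93, adjusted p = 0.00197) that missed the threshold without Jun-Ctrl replicate 2 (adjusted p = 0.0763). Pdk2, the broadly expressed form (chromosome 11, 95026258 to 95041354), had 6 and 1 counts in Jun-cKO-labelled libraries and 26 and 6 counts in Jun-Ctrl, or 0.393 and 0.148 CPM against 1.58 and 0.918 CPM. It was 4.20-fold lower (adjusted p = 0.00564), and missed the threshold with DESeq2 (adjusted p = 0.127). Without Jun-Ctrl replicate 1 it had too few counts to be tested. Pdk4, the form of fasting, had 12 and 6 counts against 15 and 6 counts (adjusted p = 0.845). Pdk3 was the most abundant form, at 72.2% and 70.2% of the family per kilobase in Jun-cKO-labelled libraries and 80.9% and 75.3% in Jun-Ctrl, while Pdk1 made up 25.8% and 28.1%, against 11.3% and 18.3%. The summed kinase level was 20.2 and 19.0 CPM per kilobase in Jun-cKO-labelled libraries and 12.4 and 10.5 CPM per kilobase in Jun-Ctrl.

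None of the 4 members that encode pyruvate dehydrogenase or its phosphatase passed the test, while 41.5% of all tested genes did. Pdha1, the subunit that the kinases phosphorylate, had 34.7 and 35.3 CPM in Jun-cKO-labelled libraries and 34.9 and 31.7 CPM in Jun-Ctrl (adjusted p = 0.761). Its partner subunit Pdhb had 93.4 and 90.6 CPM against 113 and 94.6 CPM (adjusted p = 0.228), the transacetylase Dlat 57.3 and 48.1 CPM against 56.9 and 46.8 CPM (adjusted p = 0.917) and the phosphatase Pdp1, which reverses the kinases, 29.4 and 27.3 CPM against 26.9 and 23.3 CPM (adjusted p = 0.405). With edgeR 0 of these 4 had an unadjusted p under 0.05, and with DESeq2 0 had an adjusted p under 0.05. Dld and Pdhx, genes of the complex outside the members, were named after their values were seen. Dld was 1.26-fold higher (edgeR adjusted p = 0.0164, or 0.348 with the GC correction). Pdhx did not pass (edgeR adjusted p = 0.0817). The ratio of Pdk1 to Pdha1, both per kilobase, was 0.414 and 0.419 in Jun-cKO-labelled libraries and 0.111 and 0.167 in Jun-Ctrl. G6pdx, which takes glucose 6-phosphate into the pentose phosphate pathway, had 39.2 and 40.3 CPM against 34.9 and 50.6 CPM in Jun-Ctrl (adjusted p = 0.703).

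**Figure D3:**
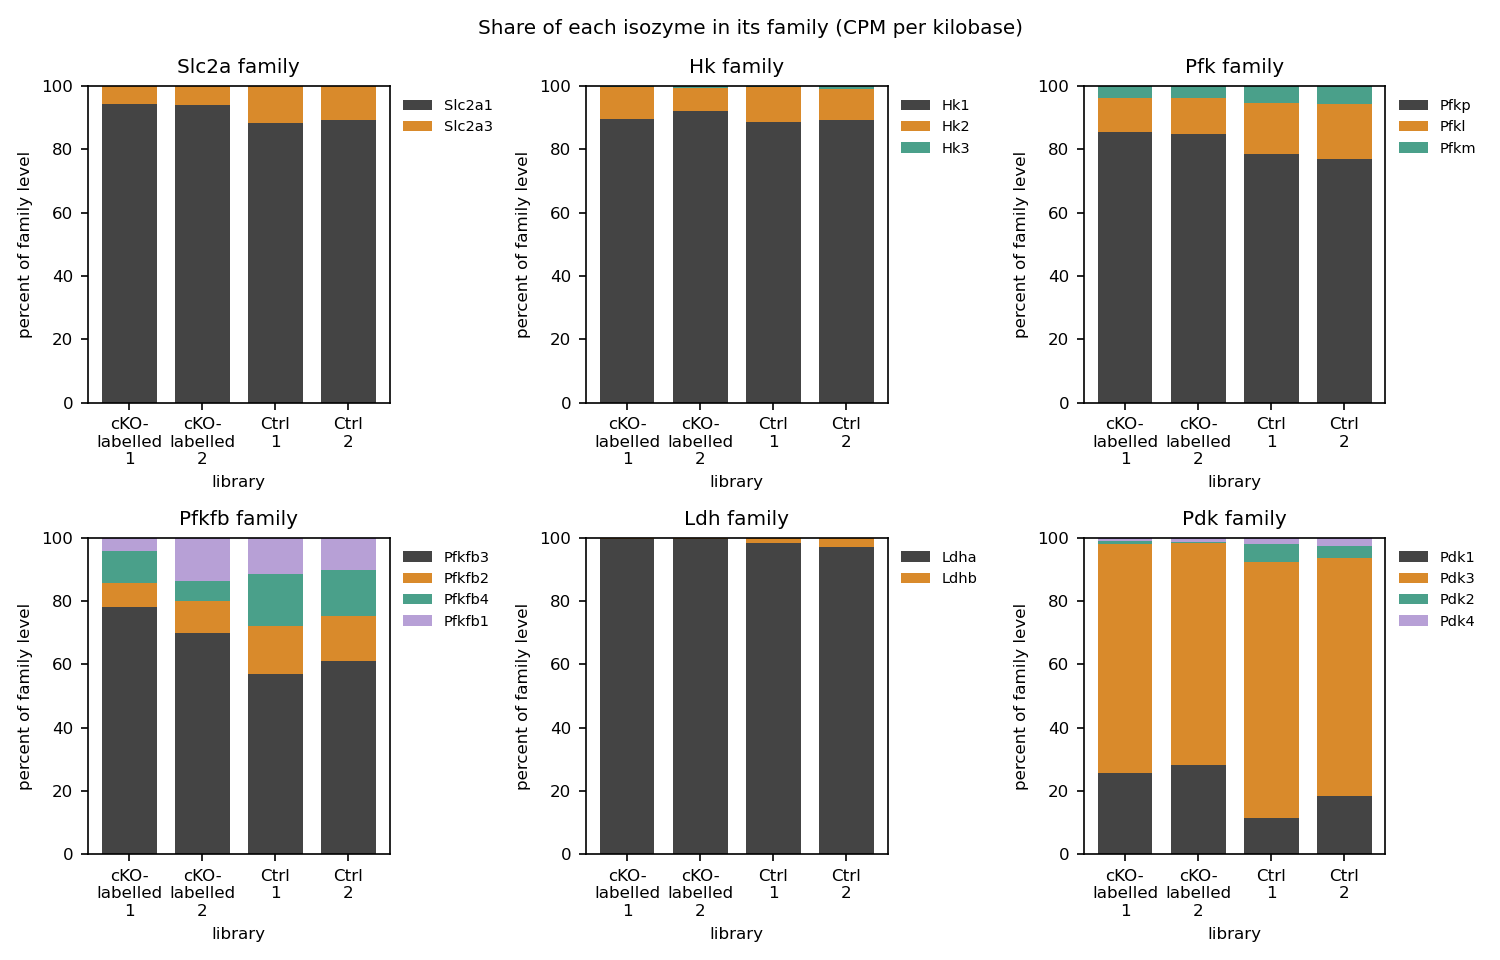
Share (%) of each isozyme in its family's summed CPM per kilobase, as stacked bars, 1 per library, with the Jun-cKO-labelled libraries left of Jun-Ctrl. Pdk1, Pfkp and Pfkfb3 take a larger share and Ldhb a smaller one in both Jun-cKO-labelled libraries than in either Jun-Ctrl library.

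The differences also followed base composition. Across the 12188 tested genes with a GC content, genes richer in GC tended to lower values under the Jun-cKO label (Spearman rho -0.34 between GC content and log2 difference, across genes, which are not independent replicates), and across the 33 tested members rho was -0.26. The members that rose had a median GC content of 49.7% and those that fell 54.7%, against 51.9% over the tested members. With GC content corrected within each library, all 11 calls remained, Aldoa and Pgam1 were added as higher, and 19.5% of genes were called higher and 19.7% lower. The log2 difference of Hk1 was -0.37 with the correction (adjusted p = 0.0101) and -0.67 without it, and that of Pdk1 was 1.63 with it and 1.72 without. The part of GC content in each change was not tested beyond this correction.

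Genes next to these steps moved in either direction. Of 24 further genes of glucose and pyruvate handling, 17 were tested, 5 rose and 4 fell, with a median log2 difference of 0.25. These are 29.4% and 23.5% of those tested, against 19% and 22.5% of all tested genes. The phosphoglucomutase gene listed as Pgm1 had 128 and 164 CPM in Jun-cKO-labelled libraries and 57.5 and 49.1 CPM in Jun-Ctrl, a fold of 2.697 (adjusted p = 5.26e-13). Among those that fell, the second pyruvate dehydrogenase phosphatase Pdp2 was 3.69-fold lower (adjusted p = 7.25e-08), pyruvate carboxylase Pcx 6.11-fold lower (adjusted p = 4.5e-07) and the transporter gene Slc2a8 2.91-fold lower (adjusted p = 1.07e-06). These 4 calls also held with the GC correction. Pcx had 13 and 8 counts in Jun-cKO-labelled libraries and 70 and 56 counts in Jun-Ctrl. Pklr, the pyruvate kinase gene of liver and red blood cells, was at 0 in all 4 libraries.

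Of the 2 genes of the carrier that admits pyruvate to mitochondria, named here after their values were seen, Mpc2 had 184 and 159 CPM in Jun-cKO-labelled libraries and 145 and 130.2 CPM in Jun-Ctrl, a fold of 1.25 (adjusted p = 0.0245). Mpc1 had 2.69 and 2.36 CPM against 2.73 and 1.07 CPM in Jun-Ctrl (adjusted p = 0.620). Windows shared with other genes were computed for the members only, so the low level of Mpc1 was not checked in this way.

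Of 7 pentose phosphate genes, Pgls rose by 1.80-fold (adjusted p = 6.36e-06), while Tkt (1.24-fold lower, adjusted p = 0.0253) and Pgd (1.27-fold lower, adjusted p = 0.0261) fell. The shares are 14.3% higher and 28.6% lower, against 19% and 22.5% of all tested genes. With the GC correction Pgls stayed higher, Tkt (adjusted p = 0.265) and Pgd (adjusted p = 0.244) no longer passed, and 3 genes were called higher and 0 lower. Of 18 tricarboxylic acid cycle genes, Idh2 (1.29-fold, adjusted p = 0.00935) and Sdhd (1.24-fold, adjusted p = 0.0286) rose and none fell, with a median log2 difference of 0.09. Those called are 11.1% higher and 0% lower, against 19% and 22.5% of all tested genes. With the GC correction 3 of the 18 were called higher and 0 lower. Of 20 hypoxia targets outside glycolysis, a list chosen with earlier results of these data known, 13 rose and 3 fell, with a median log2 difference of 0.48. These are 65% and 15%, against 19% and 22.5% of all tested genes. Among the 20, Ankrd37 had 27.3 and 31.2 CPM in Jun-cKO-labelled libraries and 6.73 and 4.90 CPM in Jun-Ctrl, a fold of 4.77 (adjusted p = 1.21e-13). P4ha1, Ndrg2 and Cited2 fell, and Vegfa, Adm, P4ha2 and Car9 did not pass. With the GC correction 12 of the 20 were called higher and 2 lower. Of 7 genes of the hypoxia-inducible factors and their regulators, Vhl rose (1.30-fold, adjusted p = 0.0499) and Egln2 fell (1.36-fold lower, adjusted p = 0.00224). Each is 14.3% of the list, against 19% higher and 22.5% lower over all tested genes. With the GC correction Vhl and Egln2 did not pass (adjusted p = 0.0567 and 0.926), and Hif1an passed as higher (adjusted p = 0.0485).

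**Figure D4:**
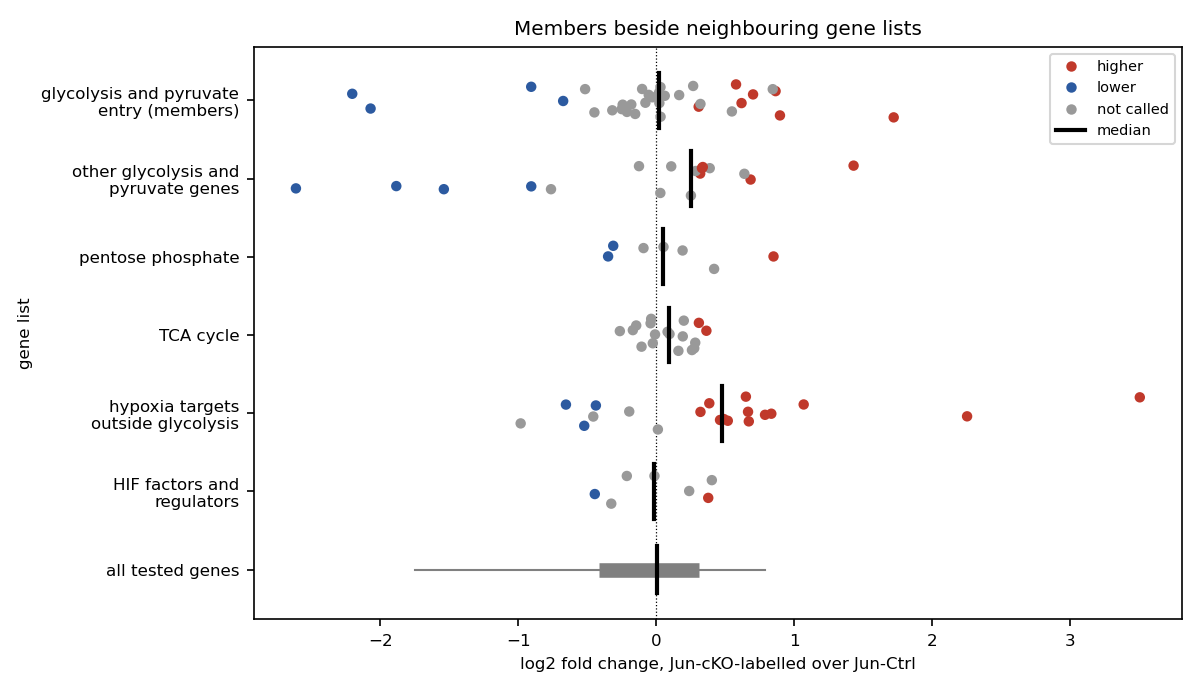
Log2 differences, Jun-cKO-labelled minus Jun-Ctrl, of the tested genes of each list, 1 point a gene coloured by its call, with a bar at the median; for all tested genes the box spans the middle 50% and the line the middle 90%. The members centre on a median of 0.021, the tricarboxylic acid cycle genes on 0.09 and the hypoxia targets outside glycolysis on 0.48.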

How the data were processed

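RNA was measured in 4 libraries, 2 per group. The deposited values are raw read counts per gene, per the file headers and their whole-number values, beside the authors' gene length in bases. The build mm10 and the tools featureCounts 1.6.4, STAR 2.7.2a and edgeR 3.28.1 appear per the submitters' processing notes, which give no roles. Which annotation and strand setting were used is not given in the sources used here. The library kit does not mark strand, per the labels' protocols.

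The test was that of edgeR 4.0.16 in R 4.3.3 (filterByExpr, TMM, glmQLFit, glmQLFTest) over all 4 libraries without a block, leaving 12656 of 24421 genes, with a Benjamini-Hochberg adjusted p under 0.05 as the call. Standard errors are the log2 difference over the root of its F statistic, and intervals are 95%. The biological coefficient of variation was 0.089. The 3 counts that a 0 allows equal 0.193 and 0.434 CPM in Jun-cKO-labelled libraries and 0.187 and 0.463 CPM in Jun-Ctrl, for counting error only, since amplified reads are not independent molecules. GC content is that of each gene's longest protein-coding transcript in GENCODE M21 (GRCm38), known for 96.3% of tested genes, fitted per library by loess (span 0.5). Windows of 79 bases of each member were compared with the transcripts of all genes by exact match. DESeq2 1.42.0 and limma 3.58.1 served as alternatives, and the scripts were tested on simulated data.

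The members, the other gene lists and the named alternatives were chosen with earlier results of these data known. All members are named. Of the other lists, up to 4 called genes with the smallest p are named, beside genes at 0 and the hypoxia targets that did not rise. Mpc1, Mpc2, Dld and Pdhx were named after their values were seen.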

Additional observations from a re-analysis of the deposited data

How the results depend on the processing

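Pfkfb3, Ldhb and Pdk1 passed under all 16 alternatives. With each library left out in turn, genes called over all tested ranged from 2992 to 4794 (higher 1177 to 2214, lower 1815 to 2656) and members called from 8 to 12. The DESeq2 Wald test called 1564 genes higher. Tested against a 1.5-fold change, 1453 genes passed, 261 higher and 1192 lower, and 5 members, 3 higher and 2 lower, in 4 steps of the pathway.

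Members without a call changed sign. The log2 differences of Gpi1, Pfkm, Tpi1 and Dlat became -0.014, -0.0057, -0.0059 and -0.017 with upper-quartile scaling. They were -0.032, -0.026, -0.023 and -0.037 with library totals, and -0.014, -0.0085, -0.0057 and -0.019 with a filter of 50 counts. In these settings the median shift per gene from the main fit was -0.037, -0.057 and -0.038, larger than these members' own differences (0.021 to 0.032). The log2 difference of Pfkfb1 became 0.12 in DESeq2, and the cause of this and the following changes was not tested. With the GC correction, Pfkl became 0.30, Gapdh 0.22, Pkm 0.14, Pdha1 -0.053, Dlat -0.062, Pdp1 -0.053 and G6pdx 0.0093. With libraries left out, Gpi1 ranged from -0.036 to 0.085, Pfkl from -0.15 to 0.14, Pfkm from -0.077 to 0.15, Tpi1 from -0.12 to 0.15, Pfkfb1 from -0.87 to 0.75, Slc16a3 from -0.075 to 0.58, Pdha1 from -0.019 to 0.13, Dlat from -0.12 to 0.17 and G6pdx from -0.36 to 0.17.

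Replicate numbers do not come from a stated pairing, and deviations of same-numbered libraries correlated at 0.0732 over 12656 genes. A replicate block called 2521 genes higher and 2905 lower and 13 members, adding Aldoa (adjusted p = 0.0438) and Slc16a1 (adjusted p = 0.0499). A replicate block with GC correction gave Pfkl 0.29, Gapdh 0.21, Pkm 0.13, Pdha1 -0.052, Dlat -0.060, Pdp1 -0.049 and G6pdx 0.030. In that fit Pdhb passed as lower (adjusted p = 0.0228) and Slc16a3 as higher (adjusted p = 0.0222). With 2 libraries per group, members at a few counts, such as Pdk2 and the enolases, cannot be followed closely.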
